A study of Homo sapiens with 15 samples.

Results

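The genes described here are 10 genes of cell contraction and of the YAP programme, named one by one and looked up in both of the series' UMI count tables: TAGLN, MYL9, CALD1, CNN2, ACTN1, TPM1 and TPM2, which encode proteins of contractile actin filaments, and CCN1, CCN2 and ANKRD1, which are commonly read as targets of YAP. All 10 were among the 15230 genes listed in the table of day 7 libraries, and 9 passed its filter on low counts. In the table of day 3 and day 7 libraries, with 12575 genes, 9 were listed and tested, and ANKRD1 was not listed. The 10 are a list of names with no threshold on a measured value, drawn up with earlier results of these data known.

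The cells were immortalized human astrocytes (IHA), an established line from fetal astrocytes immortalized with SV40, in which doxycycline at 1 µg/ml switched on mutant IDH1, named R132H in the design text. IDH1 is a cytosolic enzyme that makes alpha-ketoglutarate, and the mutant enzyme makes 2-hydroxyglutarate. There were 5 samples at day 7 of doxycycline, 4 samples at day 3 and 6 untreated samples. The titles carry a tag, read here as a batch: 4 day 7, 4 day 3 and 3 untreated samples are tagged b2, and 1 day 7 and 3 untreated samples are tagged b1. All samples share the line, the serum and EGF medium, and a genotype label of WT IDH1. No group received doxycycline without an induced mutant, so the drug and the mutant enzyme cannot be told apart, and the labels do not say whether the line is 1 clone or whether samples are separate cultures, so p-values measure the spread between these samples only.

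Libraries were made by MARS-seq, which tags the 3′ ends of transcripts with unique molecular identifiers (UMIs) before amplification, so that each UMI stands for 1 captured molecule. Depth ran from 2573290 to 5567651 UMIs a library for the first table, and from 1816599 to 4656705 for the table with day 3. IDH1 had 28.6 to 43.4 CPM in day 7 libraries and 26.4 to 36.8 CPM in untreated libraries of the day 7 table, and whether the induced transgene keeps the 3′ end that is counted was not given in the sources used here. Of 12 astrocyte markers, 8 were listed in the day 7 table, with VIM at 8160.2 ± 807 CPM in day 7 b2 and 7272 ± 636 CPM in untreated b2 libraries. GFAP, AQP4, ALDH1L1 and SLC1A2 were not listed, in tables that hold only genes with at least 6 UMIs in some library, and S100B had 0 to 8 UMIs a library.

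Contractile force in non-muscle cells comes from myosin II pulling on actin filaments. Tropomyosins line the filaments, caldesmon and calponin restrain the motor, alpha-actinin ties filaments together, and transgelin binds along them. Many of these genes are transcribed by SRF with its actin-sensing coactivators MRTF-A and MRTF-B. YAP and TAZ are coactivators that leave the cytoplasm when cells spread or pull on their surroundings, bind TEAD factors in the nucleus and switch on genes such as CCN1, CCN2 and ANKRD1, while the Hippo kinases hold them back. In astrocytes this machinery shapes processes and the response to injury.

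Day 7 of doxycycline was set against no doxycycline over both batches of the day 7 table. Of the 9 genes tested, 5 fell (TAGLN, CALD1, MYL9, CCN1 and CCN2) and 1 rose (TPM1), where 15.7% of all 12449 genes tested passed the same threshold, 7.28% lower and 8.43% higher. TPM2, ACTN1 and CNN2 did not pass. Log2 changes ran from -0.77 to 0.28, with medians of -0.16 over the 7 contractile genes and -0.45 over CCN1 and CCN2, against -0.02 over all genes tested. Each p comes from edgeR (quasi-likelihood, batch as a term), adjusted by Benjamini and Hochberg's method over all genes with a threshold of 0.05, and levels are CPM, counts per 1000000 UMIs of the library's TMM-scaled total. In bulk RNA, fewer cells expressing a gene and less RNA per cell cannot be told apart.

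TAGLN, at chr11:117199321-117204782, plus strand, encodes transgelin (SM22-alpha), an actin-binding protein of smooth muscle and of contractile fibroblasts. Its level was 297, 299, 255 and 311 CPM in day 7 b2 libraries, against 461, 503 and 581 CPM in untreated b2 libraries. In b1 it was 471 CPM in the day 7 library, against 781, 749 and 687 CPM in untreated libraries. Every day 7 library lay below every untreated library of its batch. The change was -0.77 ± 0.07 on the log2 scale (SE, edgeR adjusted p = 1.97e-07), a 1.71-fold lower level, and ranked 279 of 12449 from the lowest.

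MYL9, at chr20:36541484-36551447, plus strand, encodes a regulatory light chain of myosin II, whose phosphorylation by ROCK and MLCK starts contraction. Day 7 b2 libraries had 259, 209, 182 and 205 CPM, against 319.9, 326 and 341 CPM in untreated b2 libraries. The b1 levels were 636 CPM at day 7 and 786, 705 and 756 CPM without doxycycline. The day 7 libraries were again the lower ones in each batch, while untreated b1 cells held 749 ± 41.0 CPM and untreated b2 cells 329 ± 11.1 CPM (SD, n = 3 each), so the gap between the batches was wider than the gap at day 7. MYL9 fell by 0.50 ± 0.09 on the log2 scale (SE, edgeR adjusted p = 0.000501).

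CALD1, at chr7:134744252-134970728, plus strand, encodes caldesmon, which binds actin and tropomyosin and holds back the myosin motor. It had 489.8, 422, 514 and 374 CPM in day 7 b2 libraries, against 613, 614 and 606 CPM in untreated b2 libraries. The day 7 b1 library had 104 CPM, against 241, 282 and 237 CPM in untreated b1 libraries. The groups did not overlap in either batch, and CALD1 fell by 0.65 ± 0.14 on the log2 scale (SE, edgeR adjusted p = 0.0103). This fall depended on the table: the day 3 and day 7 table held only 25.9% of the CALD1 UMIs of the day 7 table in the same day 7 b2 libraries and 20.0% in the same untreated b2 libraries, and with its counts the change was -0.11 (edgeR adjusted p = 0.386). The other 8 genes listed in both tables had 97.0% to 101% of their UMIs there, and 17.6% of all genes with at least 100 UMIs had under 50%. Without the day 7 b1 library the CALD1 change was -0.43, still past the threshold.

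CNN2, at chr19:1026581-1039068, plus strand, encodes calponin 2, the non-muscle calponin, which binds actin and restrains myosin. Day 7 b2 libraries had 339, 236, 292 and 288 CPM and untreated b2 libraries 328, 329.8 and 332 CPM. The b1 levels were 448 CPM at day 7 and 528, 458 and 451 CPM without doxycycline. The b2 ranges overlapped only through day 7 b2-17, slightly above a tight untreated group, while the other day 7 b2 libraries lay below that group. The day 7 b1 library was also below its untreated libraries, narrowly. The log2 change of -0.16 ± 0.08 had a 95% interval of -0.32 to 0.00 and did not pass (edgeR adjusted p = 0.168), though with library size alone as the scaling it passed at -0.23 (edgeR adjusted p = 0.0288).

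ACTN1, at chr14:68874143-68979440, minus strand, encodes alpha-actinin 1, the crosslinker of stress fibres and focal adhesions. It had 770.3, 598, 631 and 621 CPM in day 7 b2 libraries, against 665, 642 and 644 CPM in untreated b2 libraries. In b1 the day 7 library had 773 CPM and the untreated libraries 812, 779.9 and 786 CPM. The b2 ranges overlapped only through day 7 b2-17, which stood above all untreated b2 libraries, while the other 3 lay below them. The day 7 b1 library was also below its untreated libraries. The log2 change was -0.00 ± 0.07 with a 95% interval of -0.14 to 0.14 (edgeR adjusted p = 0.982).

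TPM1, at chr15:63042632-63071915, plus strand, encodes a tropomyosin, and its isoforms stabilise actin filaments of stress fibres. Its level was 1495, 1456, 1467 and 1479 CPM in day 7 b2 libraries, against 1174, 1068 and 1148 CPM in untreated b2 libraries. In b1 the day 7 library had 987 CPM and the untreated libraries 958, 989.5 and 967 CPM. The b2 groups were well apart, with the day 7 libraries tightly together, and the b1 library lay within its untreated range. TPM1 rose by 0.28 ± 0.07 on the log2 scale (SE, edgeR adjusted p = 0.00623).

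TPM2, at chr9:35681992-35690121, minus strand, encodes beta-tropomyosin. Day 7 b2 libraries had 1769.7, 1432, 1356 and 1566 CPM and untreated b2 libraries 1324, 1399 and 1416 CPM. The b1 levels were 1362 CPM at day 7 and 1332, 1327 and 1412 CPM without doxycycline. The groups overlapped in both batches, and the log2 change of 0.11 ± 0.07 (95% interval -0.04 to 0.25) did not pass (edgeR adjusted p = 0.324). Among the UMIs of the 4 tropomyosin genes TPM1 to TPM4, which are 3′ tags with no correction for length, TPM1 made up 31.5% to 33.4% in day 7 b2 libraries, against 25.7% to 28.1% in untreated b2 libraries. In b1 its share was 31.4% at day 7, against 30.0% to 31.5% without doxycycline. The TPM4 share was 20.9% to 25.0% in day 7 b2 and 26.4% to 27.3% in untreated b2 libraries, and 10.7% in day 7 b1 and 12.8% to 13.9% in untreated b1 libraries, lower at day 7 in both batches. The sizes of these shares depend on the table: TPM3 averaged 589 CPM in untreated b2 libraries here and 5.5 CPM in the day 3 and day 7 table. There the TPM1 share was 35.8% to 39.1% in day 7 b2 and 31.3% to 33.9% in untreated b2 libraries.

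**Figure D1:**
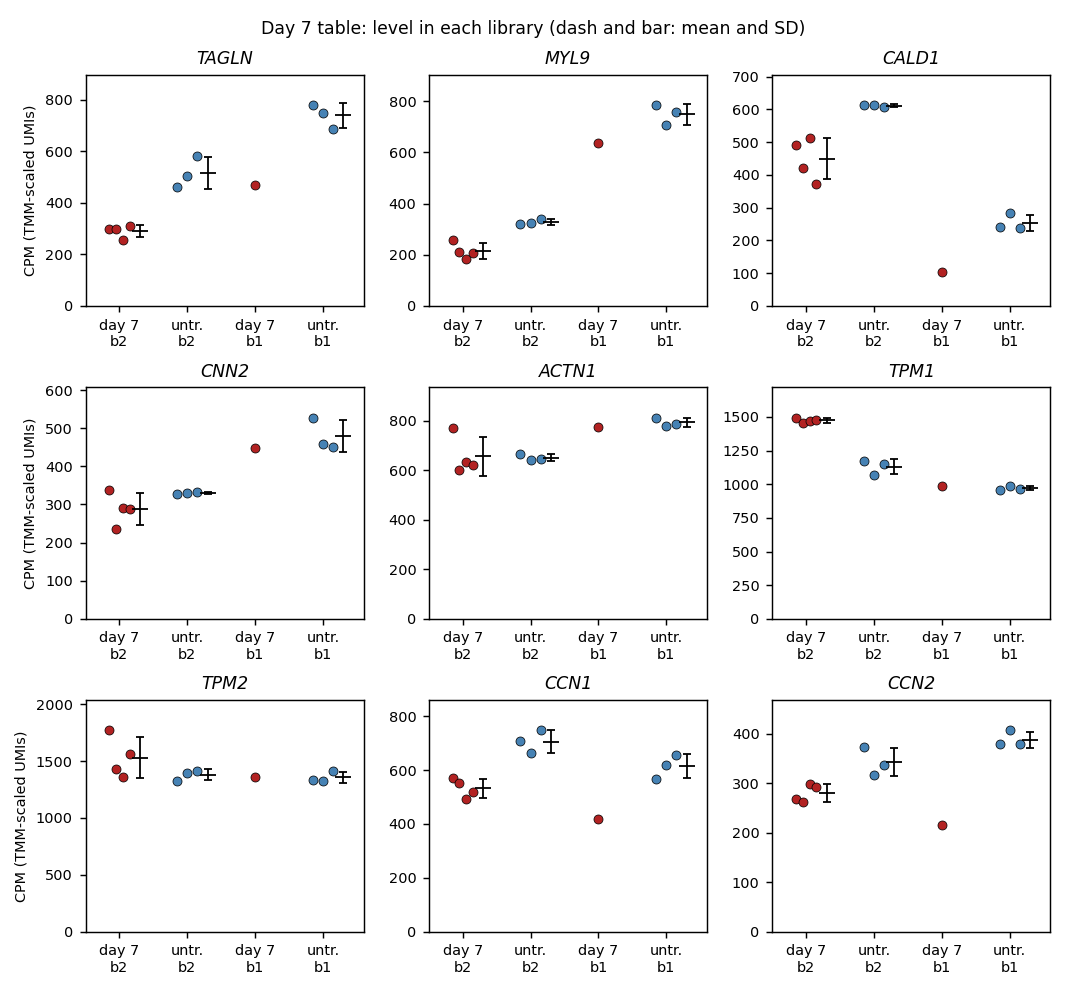
Level of 9 genes (y axis, CPM from zero) in each library of the day 7 table, with day 7 left of untreated for b2 and then for b1. Points are libraries and the dash and bar are the mean and SD of groups of 3 or 4. TAGLN, MYL9, CALD1, CCN1 and CCN2 sit below the untreated libraries of the same batch, TPM1 sits above them in b2 alone (1456 to 1495 against 1068 to 1174 CPM), and untreated MYL9 and CALD1 differ between batches. In b2, 12.7% of all genes were lower with no overlap and 11.4% were higher. No such share was counted for b1, where a lone day 7 library is set against 3 untreated ones.

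The counted tags cannot be assigned to a strand from the sources used here, which do not give the counting setting. Several of these genes overlap others on the opposite strand in GENCODE: TAGLN overlaps PCSK7, MYL9 overlaps DLGAP4-AS1, and TPM1 overlaps TPM1-AS, so reads of such partners cannot be told apart from theirs.

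CCN1 (CYR61 in older annotation), at chr1:85580761-85583962, plus strand, encodes a secreted matrix protein that binds integrins and is an early target of YAP and of SRF. It had 572, 550.3, 491 and 518 CPM in day 7 b2 libraries, against 709, 662 and 747 CPM in untreated b2 libraries. In b1 the day 7 library had 417 CPM, against 567, 620.1 and 655 CPM in untreated libraries. All day 7 libraries were below the untreated ones of their batch. CCN1 fell by 0.45 ± 0.07 on the log2 scale (SE, edgeR adjusted p = 7.23e-05), a 1.37-fold lower level.

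CCN2 (CTGF), at chr6:131948176-131951373, minus strand, encodes connective tissue growth factor, a secreted protein of matrix deposition and wound healing. Day 7 b2 libraries had 268, 262, 299 and 293 CPM, against 373, 317 and 337 CPM in untreated b2 libraries. The day 7 b1 library had 216 CPM, against 379, 407 and 379 CPM in untreated b1 libraries. The groups were apart in both batches, by a wider step in b1. CCN2 fell by 0.44 ± 0.09 on the log2 scale (SE, edgeR adjusted p = 0.00146), and without the day 7 b1 library the change was -0.27, still past the threshold.

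ANKRD1, at chr10:90912096-90921276, minus strand, encodes a nuclear and sarcomeric ankyrin-repeat protein (CARP) that YAP induces strongly in many cell types. It was close to the limit of detection: day 7 b2 libraries had 0, 1, 2 and 0 UMIs and untreated b2 libraries 3, 3 and 1. The day 7 b1 library had 1 UMI and the untreated b1 libraries 8, 2 and 8. In sum these were 3 of 17368403 UMIs in day 7 b2, 7 of 11962888 in untreated b2, 1 of 2769069 in day 7 b1 and 18 of 11296108 in untreated b1 libraries. The gene did not pass the filter on low counts and has no test in the analysis reported here. Fitted with no filter, its log2 change was -1.65, a value that depends on the prior count added to it, and did not pass (edgeR adjusted p = 0.146, unadjusted p = 0.0332).

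The windows upstream of these genes are shown because CCN1, CCN2 and ANKRD1 are read through TEAD sites and the contractile genes through SRF sites. Of the 10 genes, 7 had windows of 250 bases before a transcript start in RefSeq (GRCh38.p14); TAGLN, MYL9 and CCN1 were not matched. Each window was searched on both strands for GGAATG, the core of the TEAD motif, and for the CArG box, the SRF motif, 2 motifs that did not overlap each other in these windows. The bases outside the gene's own exons, 5′ to 3′ on the gene's strand with motif matches in capitals, were as follows, chr6:131951374-131951622 (minus strand, 249 bases) for CCN2, chr10:90921277-90921337 (minus strand, 61 bases) for ANKRD1 and chr19:1026358-1026580 (plus strand, 223 bases) for CNN2.
CCN2: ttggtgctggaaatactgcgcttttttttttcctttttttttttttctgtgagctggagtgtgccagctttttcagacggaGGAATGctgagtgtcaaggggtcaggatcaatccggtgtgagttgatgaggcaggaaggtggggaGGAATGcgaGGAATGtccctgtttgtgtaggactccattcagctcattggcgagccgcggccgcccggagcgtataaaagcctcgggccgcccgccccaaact
ANKRD1: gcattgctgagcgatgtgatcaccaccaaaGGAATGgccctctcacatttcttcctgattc
CNN2: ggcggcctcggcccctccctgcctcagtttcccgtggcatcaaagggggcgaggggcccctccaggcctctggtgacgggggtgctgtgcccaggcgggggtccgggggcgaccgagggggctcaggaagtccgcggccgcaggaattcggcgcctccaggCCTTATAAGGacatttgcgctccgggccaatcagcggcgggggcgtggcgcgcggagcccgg
The CCN2 window held 3 GGAATG matches, which begin 169, 104 and 95 bases before the start. The ANKRD1 window of 250 bases held 2, which begin 220 and 128 bases before the start, and the second lies in the part not printed, inside an exon of a longer GENCODE transcript. CNN2 held 1 CArG box, 89 to 80 bases before its start. Among all 35116 windows in the table, 11.9% held at least 1 GGAATG, 0.94% at least 2 and 0.0826% at least 3, and 1.16% held a CArG box. ACTN1 held both motifs in 1 of its 4 windows, CALD1 held 1 GGAATG in each of 2 of its 4 windows, and the windows of TPM1 and TPM2 held neither motif. A match describes the letters of a window and shows no binding. CCN2 fell at day 7, while CNN2, with its CArG box, did not pass, and a link between motifs and changes was not tested.

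Whether the day 7 change was the same in both batches was tested as the difference of the day 7 effect, b2 minus b1, with 4 day 7 libraries in b2 and 1 in b1. It passed for 2 of the 9 genes, CALD1 and CCN2, where 2.44% of all 13371 genes tested passed, 1.42% with the higher effect in b2 and 1.02% with the lower. Both had the smaller fall in b2. CALD1 changed by -0.43 ± 0.09 in b2 and -1.28 ± 0.17 in b1 (log2, SE), a difference of 0.85 ± 0.19 (edgeR adjusted p = 0.0173). CCN2 changed by -0.28 ± 0.07 in b2 and -0.84 ± 0.12 in b1, a difference of 0.57 ± 0.14 (edgeR adjusted p = 0.0243). The CALD1 difference had an adjusted p of 0.0505 with limma-voom, and the CCN2 difference lost its call without untreated b1-2, untreated b2-2 or untreated b2-4 (edgeR adjusted p = 0.0695, 0.0816 and 0.0586). In b1 the lone day 7 library is assumed to vary as the others do.

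Within b2 alone, 6 of the 9 genes passed, where 14.3% of all genes did (7.37% higher, 6.94% lower), and they were TAGLN (-0.82 ± 0.08), MYL9 (-0.62 ± 0.09), CALD1, TPM1 (0.39 ± 0.06), CCN1 (-0.40 ± 0.07) and CCN2. The same 6 were the genes whose day 7 and untreated b2 libraries did not overlap: 5 were lower, where 12.7% of genes were lower with no overlap, and TPM1 was higher, where 11.4% were. Within b1, 4 passed, where 6.94% of all genes did (3.56% higher, 3.38% lower): TAGLN (-0.65 ± 0.13), CALD1, CCN1 (-0.56 ± 0.12) and CCN2. MYL9 had a b1 value of -0.23 ± 0.13 (edgeR adjusted p = 0.312) and TPM1 one of 0.02 ± 0.10 (edgeR adjusted p = 0.916). Neither was shown to differ between the batches: the difference was -0.38 ± 0.16 for MYL9 (edgeR adjusted p = 0.211) and 0.37 ± 0.12 for TPM1 (edgeR adjusted p = 0.09). Without day 7 b2-17 both differences passed, at -0.49 for MYL9 (edgeR adjusted p = 0.0101) and 0.36 for TPM1 (edgeR adjusted p = 0.0468).

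**Figure D2:**
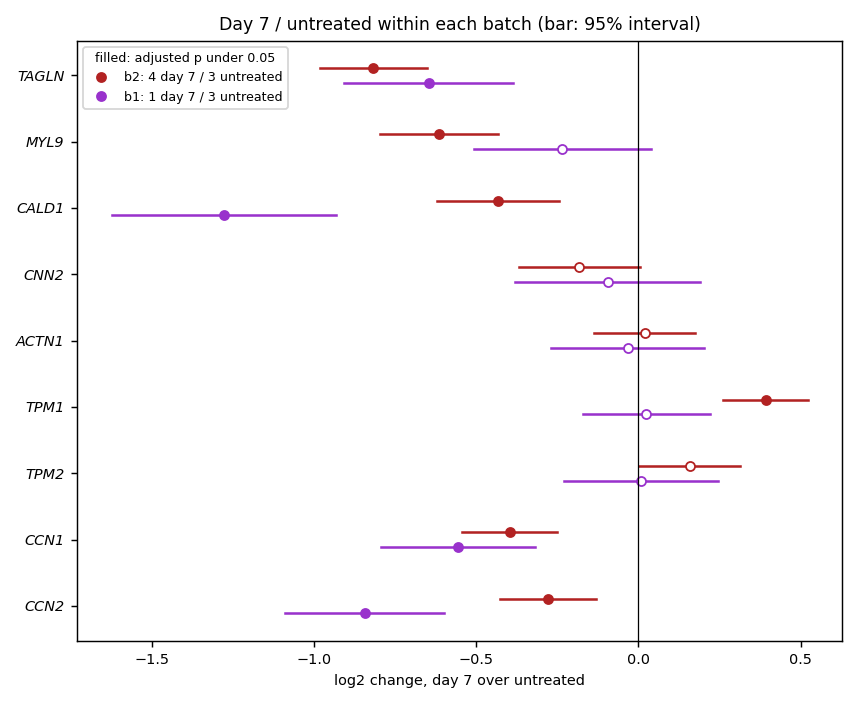
Log2 change at day 7 over untreated (x axis) of each gene (y axis), fitted within b2 above and within b1 below, with 95% intervals as bars; filled points passed an adjusted p of 0.05. CALD1 (-0.43 in b2, -1.28 in b1) and CCN2 (-0.28 in b2, -0.84 in b1) are the 2 genes whose batch difference passed.

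The timing of these changes was read from the day 3 and day 7 table, which holds b2 libraries only. At day 3, 2 of the 9 genes had fallen, CCN1 and MYL9, and none had risen, where 3.51% of all 10586 genes tested passed, 1.67% lower and 1.84% higher. Between day 3 and day 7, TAGLN and CCN2 fell and TPM1 rose, where 5.07% of genes passed, 2.31% lower and 2.76% higher. CCN1 thus passed by day 3, and TAGLN, TPM1 and CCN2 passed between day 3 and day 7. The day 3 and day 7 comparisons share libraries, so their values are given side by side and not correlated.

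CCN1 had 873, 813 and 909.7 CPM in untreated libraries, 642, 599.8, 714 and 657 CPM at day 3 and 696, 666, 600.1 and 612 CPM at day 7. The day 3 libraries lay below all untreated ones, and day 3 and day 7 overlapped throughout. At day 3 the change was -0.41 ± 0.07 on the log2 scale (SE, edgeR adjusted p = 0.000878), and between day 3 and day 7 it was -0.02 ± 0.07 with a 95% interval of -0.16 to 0.12 (edgeR adjusted p = 0.912). MYL9 had 390.2, 392 and 412 CPM in untreated libraries, 271, 323, 327 and 312 CPM at day 3 and 310.3, 248, 211 and 231 CPM at day 7. Its day 3 libraries too were all below the untreated ones, and 1 day 7 library lay within the day 3 range. The day 3 change of -0.37 ± 0.10 passed narrowly (edgeR adjusted p = 0.0432) and lost its call without any one of the day 3 or untreated libraries or without day 7 b2-18 (edgeR adjusted p = 0.0524 to 0.141). Between day 3 and day 7 MYL9 changed by -0.31 ± 0.09 (edgeR adjusted p = 0.0584), which passed without day 3 b2-9 (-0.36) or day 7 b2-17 (-0.43) and with DESeq2 (-0.31, adjusted p = 0.0427). It also passed with limma-voom (-0.33, adjusted p = 0.046) and with library size alone (-0.32, edgeR adjusted p = 0.0245). A filter of at least 5 CPM in 3 libraries gave a pass too (-0.31, edgeR adjusted p = 0.0474).

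TAGLN had 568, 621 and 708 CPM in untreated libraries, 555, 539.5, 533 and 621 CPM at day 3 and 366, 365, 312 and 366 CPM at day 7. Untreated and day 3 libraries overlapped, and day 7 stood clear below both, as 5.47% of genes did relative to day 3. The day 3 change was -0.17 ± 0.08 with a 95% interval of -0.33 to -0.01 and did not pass (SE, edgeR adjusted p = 0.274). The change between day 3 and day 7 was -0.68 ± 0.07 (SE, edgeR adjusted p = 2.93e-07), ranked 150 of 10586 from the lowest. TPM1 had 1401, 1271 and 1353 CPM in untreated libraries, 1432, 1243, 1403 and 1261 CPM at day 3 and 1785, 1733, 1769 and 1710.4 CPM at day 7. Here too only day 7 stood apart, above both other groups; 6.17% of genes were higher at day 7 than at day 3 with no overlap. Its day 3 change was -0.01 ± 0.07 with a 95% interval of -0.15 to 0.13 (edgeR adjusted p = 0.976), and it rose by 0.39 ± 0.06 between day 3 and day 7 (SE, edgeR adjusted p = 0.000123).

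CCN2 had 463, 393 and 415 CPM in untreated libraries, 446, 403, 427 and 355 CPM at day 3 and 326, 317, 369.6 and 346 CPM at day 7. The day 3 libraries overlapped both of the other groups. The day 3 change was -0.06 ± 0.08 with a 95% interval of -0.22 to 0.10 (edgeR adjusted p = 0.781). The fall of 0.26 ± 0.07 between day 3 and day 7 passed (edgeR adjusted p = 0.0339) but lost its call without day 3 b2-9, b2-10 or b2-11 or day 7 b2-18 or b2-20 (edgeR adjusted p = 0.138, 0.0658, 0.0963, 0.111 and 0.0503).

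TPM2, with 1894, 1897, 1925 and 1912 CPM at day 3 against 1632, 1683 and 1728 CPM in untreated libraries, had no overlap between these groups, as 8.6% of genes did in this direction, and did not pass (log2 change 0.18 ± 0.08, edgeR adjusted p = 0.2). CALD1, in the reduced counts of this table, had 136, 124, 126 and 125 CPM at day 3 against 158, 139 and 158 CPM in untreated libraries. Its day 3 libraries were lower with no overlap, as 8.14% of genes were, and its change of -0.25 ± 0.08 did not pass (edgeR adjusted p = 0.0852), except without day 7 b2-17 (-0.25, edgeR adjusted p = 0.0392) or with library size alone (-0.28, edgeR adjusted p = 0.0456). ACTN1 (-0.06 ± 0.08) and CNN2 (-0.10 ± 0.09) did not pass at day 3, and neither these nor TPM2 and CALD1 passed between day 3 and day 7.

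**Figure D3:**
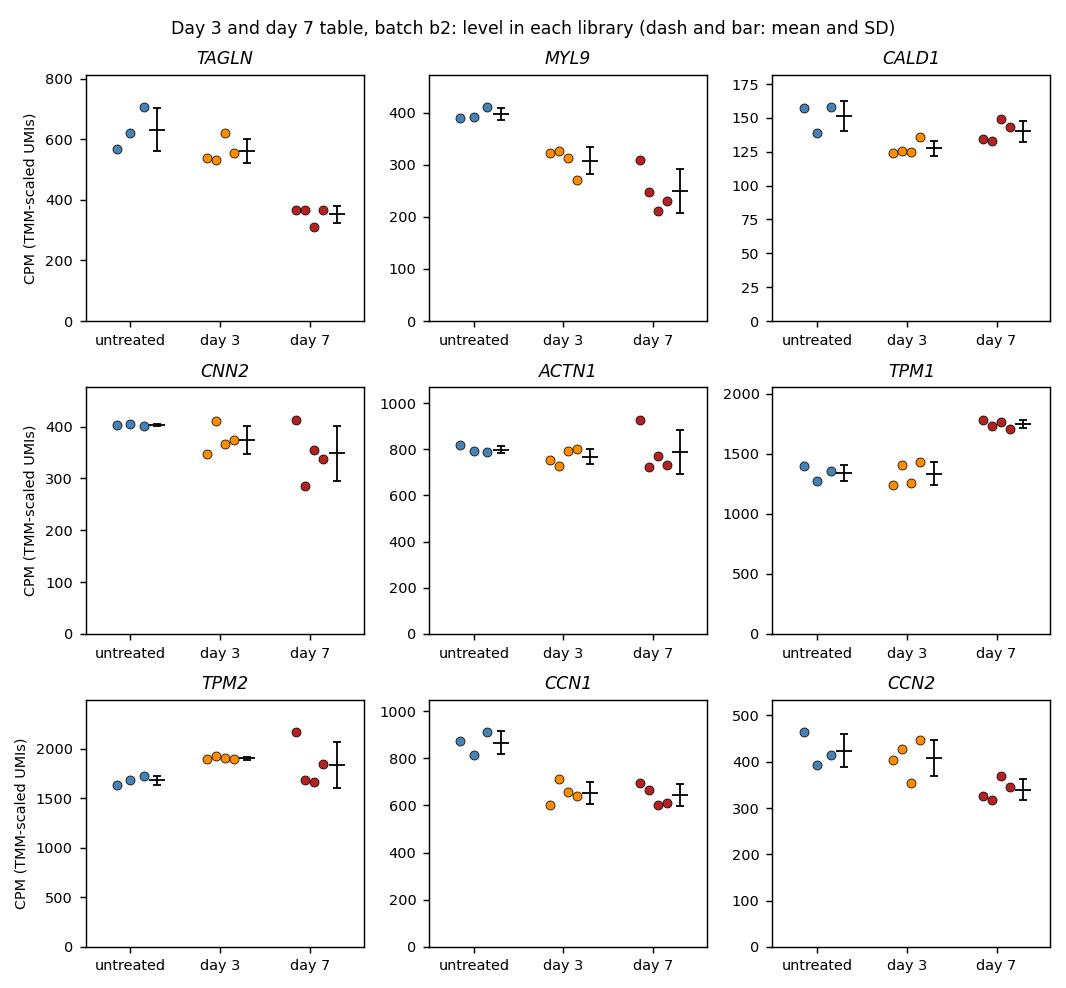
Level of 9 genes (y axis, CPM from zero) in each b2 library of the day 3 and day 7 table, untreated, day 3 and day 7 from left to right; points are libraries and the dash and bar are the mean and SD. CCN1 is lower at day 3 (599.8 to 714 CPM) than untreated (813 to 909.7 CPM) and level after that, while TAGLN and TPM1 stand apart from untreated at day 7 only.

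**Figure D4:**
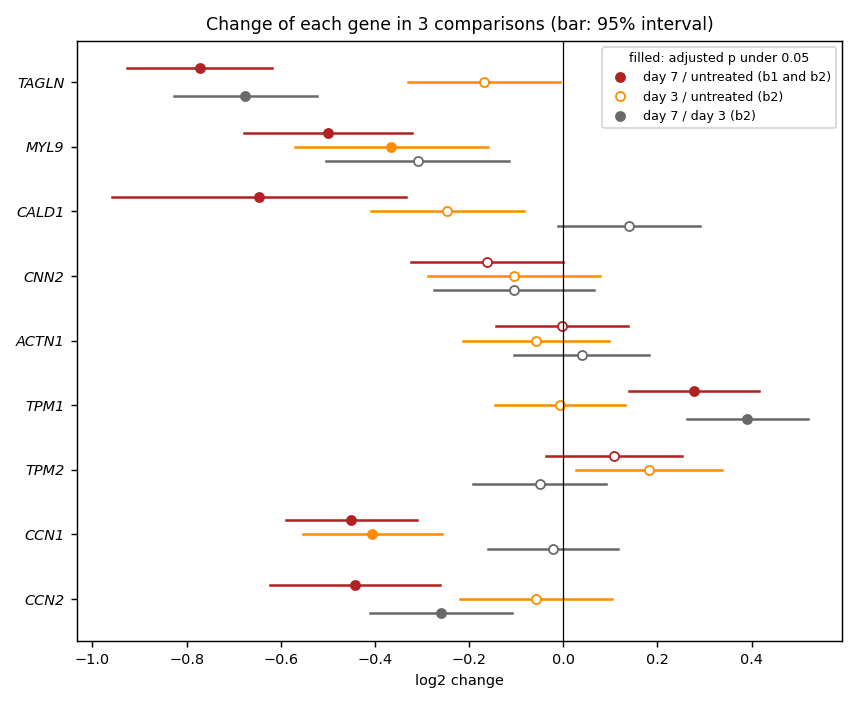
Log2 change (x axis) of each gene (y axis) in 3 comparisons, day 7 over untreated in both batches, day 3 over untreated and day 7 over day 3 in b2, with 95% intervals as bars and filled points for an adjusted p under 0.05. TAGLN and TPM1 passed between day 3 and day 7, with changes of -0.68 and 0.39, and CCN1 passed at day 3, with -0.41. The day 3 interval of TAGLN, which did not pass there, lies below zero (-0.33 to -0.01).

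Over the 11 libraries of the day 3 and day 7 table, levels of these genes on the log2 CPM scale were compared as a description, since the libraries share 3 treatment groups. TAGLN had a Pearson r of 0.84 with MYL9, 0.61 with CCN1 and -0.92 with TPM1, and MYL9 had 0.84 with CCN1. Not all pairs moved together: TAGLN had 0.03 with ACTN1, 0.00 with CALD1 and -0.09 with TPM2, and CCN1 had 0.44 with CCN2. Among 6265 other genes with at least 20 CPM on average, those most like TAGLN were H1FX (r = 0.972), a linker histone, HLA-E (0.969), GRN (0.959), IFITM3 (0.956) and NNMT (0.956). Those most like CCN1 were SLC7A5 (0.989), an amino acid transporter, TMEM42 (0.938), APOE (0.937), TRIB3 (0.935) and PHGDH (0.933), the first enzyme of serine synthesis. SLC7A5 changed by -0.77 at day 3 and -0.01 between day 3 and day 7 (log2), and NNMT by -0.17 at day 3 and -1.05 between day 3 and day 7.

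The other genes of these pathways were read from lists, each beside 15.7% of all genes called at day 7 and a median log2 change of -0.02 over all genes. Some genes, such as CNN1 and TGFB1I1, stand on several lists and are counted in each, so the counts of the lists are not independent. Of 19 other YAP and TEAD targets tested, 4 fell and 2 rose at day 7, with a median of -0.13. The fallers of smallest p were CCDC80 (-0.66 ± 0.11, edgeR adjusted p = 0.000181), a matrix protein, AJUBA (-0.40 ± 0.09, edgeR adjusted p = 0.00412), a LIM protein that binds LATS kinases, and RBMS3 (-0.93 ± 0.23, edgeR adjusted p = 0.00827), which had 9 to 46 UMIs a library. AXL also fell, and NT5E and FJX1 rose. AMOTL2, a target often read beside CCN1, had a value of 0.04 (edgeR adjusted p = 0.727). Without the day 7 b1 library 4 fell and 4 rose, with a median of -0.04.

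Of 23 Hippo pathway genes tested, 3 rose and 2 fell at day 7, with a median of -0.13 that was 0.03 without the day 7 b1 library. WWC1 (0.32 ± 0.09, edgeR adjusted p = 0.0144), an upstream scaffold, rose, and WWC2 (-0.37 ± 0.09, edgeR adjusted p = 0.00669), its paralog, and SAV1 (-0.32 ± 0.09, edgeR adjusted p = 0.0175), the scaffold of the MST kinases, fell. SAV1 lost its call without day 7 b2-17, untreated b2-2 or untreated b2-4 (edgeR adjusted p = 0.0522, 0.0504 and 0.0652), and WWC1 and WWC2 with the b2 counts of the day 3 and day 7 table (0.15 and -0.09). Those counts were reduced, with 24 to 51 UMIs of WWC1 and 11 to 15 of WWC2 in untreated b2 libraries. The day 7 table held 234 to 429 and 280 to 516 in the same libraries. With the b2 libraries of the day 7 table alone, SAV1 (-0.30, edgeR adjusted p = 0.0571) and WWC2 (-0.25, edgeR adjusted p = 0.0623) also lost their calls. The coactivators themselves, named here after their values were seen, did not pass: YAP1 had -0.13 ± 0.12 (edgeR adjusted p = 0.506) and WWTR1, which encodes TAZ, 0.18 ± 0.10 (edgeR adjusted p = 0.23). Their RNA levels do not report their place in the cell.

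Of 20 other SRF and MRTF targets and factors tested, 3 fell and 2 rose, with a median of -0.01. CNN1 (-0.48 ± 0.09, edgeR adjusted p = 0.000608), the smooth muscle calponin, FHL1 (-0.35 ± 0.08, edgeR adjusted p = 0.0049) and TGFB1I1 (-0.31 ± 0.08, edgeR adjusted p = 0.00679), an adhesion LIM protein, fell, and FHL1 lost its call with b2 libraries alone (-0.23, edgeR adjusted p = 0.072). SRF (0.06) and MRTFA (0.07), named after their values were seen, did not pass. Of 16 other isoforms of the contractile proteins, 3 rose and 3 fell, with a median of -0.11, and paralogs of the same family could stand on opposite sides. ACTN4 rose by 0.47 ± 0.09 (edgeR adjusted p = 0.00127) where ACTN1 did not pass, with 1249 ± 116 CPM in day 7 b2 and 853 ± 139 CPM in untreated b2 libraries. TAGLN2 rose by 0.38 ± 0.09 (edgeR adjusted p = 0.00458) where TAGLN fell. CNN1 fell where CNN2 did not pass; these differences between paralogs were not tested.

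Of 22 focal adhesion genes, 5 rose and 1, TGFB1I1, fell, with a median of 0.00. The risers of smallest p were PXN, paxillin (0.42 ± 0.08, edgeR adjusted p = 0.00109), BCAR1, p130Cas (0.41 ± 0.09, edgeR adjusted p = 0.00386), and LASP1 (0.29 ± 0.06, edgeR adjusted p = 0.0039). The split of calls depended on the scaling: with library size alone, which moved the median of all genes from -0.02 to -0.09 and the calls over all genes from 1049 higher and 906 lower to 667 higher and 1429 lower, the calls were 1 higher and 5 lower for Hippo genes, 1 and 5 for SRF and MRTF targets, 3 and 6 for other isoforms, and 3 and 3 for focal adhesion genes. Of the related CCN and CARP family genes, CCN3 to CCN6 and ANKRD2 were not listed, and ANKRD23 did not pass (0.17).

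**Figure D5:**
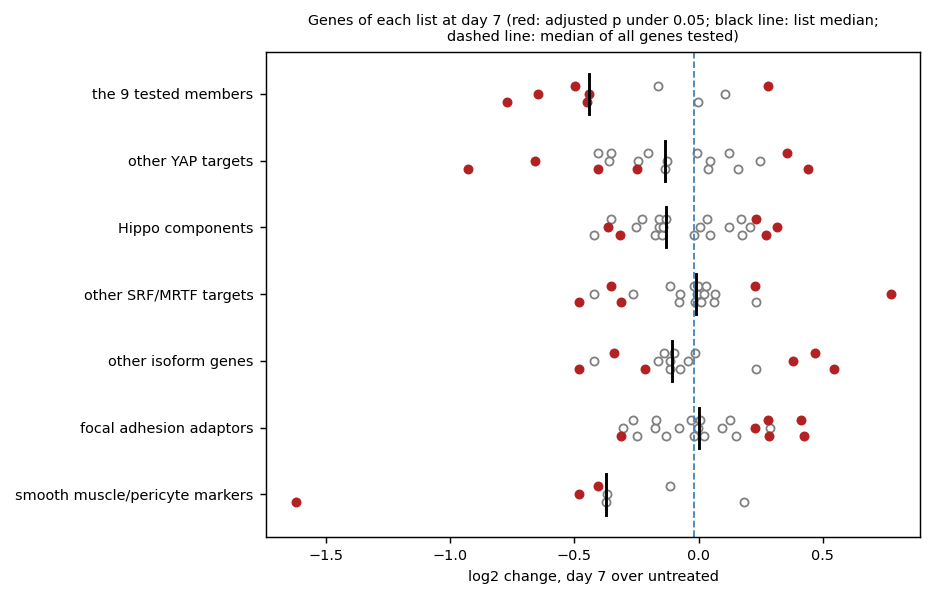
Log2 change at day 7 over untreated (x axis) of each tested gene of each list (y axis); red points passed an adjusted p of 0.05, black bars are list medians and the dashed line is the median of all genes (-0.02). The 9 genes of contraction and of YAP have a median of -0.44, and the other YAP targets one of -0.13 with calls on both sides.

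At day 3, where 3.51% of all genes passed, calls in the same lists were few. AJUBA fell by 0.51 and MAP4K4, a kinase that acts on LATS, rose by 0.59. The MAP4K4 value rests on reduced counts, with 100 to 218 UMIs in untreated b2 libraries here. The day 7 table held 521 to 1094 in the same libraries, and its day 7 change there, over both batches, was 0.23. IGFBP3, ACTN4 and PXN rose and TGFB1I1 fell at day 3, each with an edgeR adjusted p of 0.0187 to 0.0432, and all 4 lost their call without untreated b2-4 (edgeR adjusted p = 0.0601 to 0.268) and without some other libraries. Between day 3 and day 7, where 5.07% of genes passed, IGFBP3 (-0.40), CCDC80 (-0.44), AXL (-0.25) and CNN1 (-0.35) fell, and NT5E (0.54) and TAGLN3 (0.85) rose. CCDC80 lost its call without day 3 b2-12 or day 7 b2-18 (edgeR adjusted p = 0.0787 and 0.0675), and CNN1 without day 3 b2-9 or b2-11 or day 7 b2-19 or b2-20 (edgeR adjusted p = 0.0588, 0.107, 0.0619 and 0.0634).

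The batch difference passed for 4 of the 19 other YAP targets, where 2.44% of all genes passed, each with the higher day 7 effect in b2 as for CCN2. F3, tissue factor, had a difference of 1.22 ± 0.18 (edgeR adjusted p = 0.000155), with 127 ± 13.1 CPM in day 7 b2, 105 ± 5.36 in untreated b2, 53.4 in day 7 b1 and 102 ± 4.32 in untreated b1 libraries. GADD45A differed by 0.69 ± 0.14 (edgeR adjusted p = 0.00655) and IGFBP3 by 0.89 ± 0.22 (edgeR adjusted p = 0.0231), the second of which lost its call without untreated b1-3 (edgeR adjusted p = 0.0534) and with DESeq2 and limma-voom. CRIM1 was the fourth. PDLIM5, of the focal adhesion list, differed by 0.70 ± 0.17 and lost its call without untreated b1-1 (edgeR adjusted p = 0.0516).

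Markers of other cells that share the contractile genes were read beside them. Of 10 smooth muscle and pericyte markers 8 were listed, MYH11 and RGS5 were not, and their summed level was 334 to 351 CPM in day 7 b2, against 377 to 406 CPM in untreated b2 libraries. In b1 the sum was 523 CPM at day 7, against 486 to 552 CPM without doxycycline. Of the 7 tested, 3 fell at day 7 with a median of -0.37, CNN1, CSPG4 (-0.40 ± 0.09, edgeR adjusted p = 0.00294) and DES (-1.62 ± 0.39, edgeR adjusted p = 0.00685), desmin, which had 2 to 22 UMIs a library. Over all genes, 7.28% were called lower at day 7. Fitted within each batch, the median over the 8 listed markers was -0.42 in b2 and -0.22 in b1, with its lone day 7 library. ACTA2, smooth muscle actin, had -0.11 (edgeR adjusted p = 0.699). MCAM had a positive value (0.18, edgeR adjusted p = 0.115), with 186 ± 5.57 CPM in day 7 b2 and 178 ± 15.9 CPM in untreated b2 libraries, and 264 CPM in day 7 b1 and 194 ± 18.1 CPM in untreated b1 libraries (SD). By time in b2, 0 of 7 passed at day 3 with edgeR (3 had an unadjusted p under 0.05), with a median of -0.03. Between day 3 and day 7, the interval in which TAGLN fell, 4 of 7 fell, with a median of -0.46, where 2.31% of all genes were called lower: CSPG4 (-0.39), NOTCH3 (-0.68), DES (-1.57) and CNN1. The part of these markers in the falls of TAGLN and MYL9 was not tested.

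Of 8 fibroblast markers 6 were listed, DCN and LUM were not, and 1 of 4 tested, THY1, fell at day 7 (-0.40 ± 0.12, edgeR adjusted p = 0.0362), a call lost without any one of 9 of the 11 libraries (edgeR adjusted p = 0.0506 to 0.134). Their summed level was 347 to 559.6 CPM in day 7 b2 and 517 to 547 CPM in untreated b2 libraries, and 901 CPM in day 7 b1 and 743 to 862 CPM in untreated b1 libraries. Of 7 astrocyte markers tested, CD44 (0.40 ± 0.07, edgeR adjusted p = 0.000615) and SOX9 (0.64 ± 0.15, edgeR adjusted p = 0.00518) rose and ALDOC (-0.83 ± 0.10, edgeR adjusted p = 5.83e-06) fell. SOX9 had 39.0 ± 2.54 CPM in day 7 b2 and 21.1 ± 6.23 CPM in untreated b2 libraries (SD). In b1 it had 27.9 CPM in the lone day 7 library and 27.1 ± 0.17 CPM in untreated libraries. CD44 had 686 ± 30.1 and 476 ± 21.0 CPM in b2, and 541 and 508 ± 6.68 CPM in b1, in the same order. The b2 minus b1 difference of the day 7 effect was 0.81 ± 0.27 for SOX9 and 0.44 ± 0.12 for CD44 (log2, SE).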

How the data were processed

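Bulk MARS-seq libraries of 15 samples were analysed from 2 tables of UMI counts, whole numbers that the authors deposited with 1 column per library. Per the submitters' processing notes, the tools were HTSeq, STAR 2.4.2a, cutadapt, bcl2fastq and DESeq2, with the hg38 build; settings were not given in the sources used here. Another 55 columns that give values by sample were left out. The tables hold different counts for the same b2 libraries, so each was fitted alone: day 7 against untreated from the day 7 table, with batch as a term, and the day 3 comparisons from the other. In the table with day 3, a pair of untreated columns carry names shared by b1 and b2 samples and were taken as untreated b2, with no sample of their own. Genes passing filterByExpr were scaled by TMM and tested with the robust quasi-likelihood test of edgeR 4.0.16 in R 4.3.3, with Benjamini-Hochberg adjustment over all genes tested. Standard errors were the log2 change over the root of F, and intervals are 95%. Alternatives were DESeq2 1.42.0 without independent filtering, limma-voom (limma 3.58.1), RLE size factors, library size alone, no filter, at least 5 CPM in 3 libraries, no batch term, b2 alone, the other table's b2 counts, and leaving out each library. The fits were tested on simulated data. Older symbols were matched by Ensembl identifier to GENCODE 29, or by name where a RefSeq synonym belonged to a single gene and was no current symbol. Plots used matplotlib 3.10.9 (Python 3.11.15).

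The 10 genes and the lists were chosen with earlier results of these data known. Of each list, the 3 called genes of smallest p were named in each comparison; 1 such gene and 1 list are not reported here. Likeness was the Pearson r of log2 CPM (offset 1) with TAGLN and with CCN1, which gave 5 genes each.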

Additional observations from a re-analysis of the deposited data

Results flagged for a closer look

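The day 7 effect differed between the batches for CALD1, by 0.85 ± 0.19, and for CCN2, by 0.57 ± 0.14 (log2 difference, b2 minus b1, SE, n = 4 and 1 day 7 libraries, edgeR adjusted p = 0.0173 and 0.0243). CALD1 had 449.9 ± 63.9 CPM in day 7 b2, 611 ± 4.35 in untreated b2, 104 in day 7 b1 and 253 ± 25.0 in untreated b1 libraries (SD). CCN2 had 280.3 ± 18.4 CPM in day 7 b2, 342 ± 28.3 in untreated b2, 216 in day 7 b1 and 388 ± 16.3 in untreated b1 libraries (SD). The b1 effect rests on 1 day 7 library.

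In groups of 4 libraries, 2 values stood far from the other 3 by Dixon's ratio, out of 27 such groups tested, where chance flags about 1 in 20. CALD1 in day 3 b2-9 was at 136 CPM, above the other day 3 libraries at 124 to 126 CPM. TAGLN in day 7 b2-19 was at 312 CPM in the day 3 and day 7 table, below the other day 7 libraries at 365 to 366 CPM. Without that library TAGLN still fell, by 0.72 on the log2 scale against untreated in the day 7 table and by 0.63 against day 3 (edgeR adjusted p = 6.66e-07 and 3.56e-06).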

How the results depend on the processing

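Of 630 values of the 9 tested genes recomputed under the alternatives, 596 kept their side of the threshold, 22 lost a call and 12 gained one. No called value changed sign, while some values that did not pass did. For ACTN1 at day 7 the log2 change was -0.00, and 0.03 without day 7 b2-18. The count of called genes at day 7 was 6 of 9 in every alternative except 2 with no batch term (323 genes called in all, against 1955), 5 with the b2 counts of the day 3 and day 7 table and 7 with library size alone. With no batch term MYL9 (-0.85), CALD1 (-0.17), CCN1 (-0.36) and TPM1 (0.40) lost their calls. Leaving out each library gave 6 to 6 called genes at day 7, 1 to 3 at day 3 (2 with all libraries), 2 to 4 between day 3 and day 7 (3 with all libraries) and 1 to 4 for the batch difference (2 with all libraries, and 1 with limma-voom). The highest of the last 3 ranges came without day 7 b2-17. The batch difference was called for 192 genes in all with DESeq2 and 205 with limma-voom, against 326 with edgeR. With library size alone, calls over all genes were 129 higher and 240 lower at day 3, against 195 and 177, and 272 and 100 for the batch difference, against 190 and 136. Of 734 values of the other named genes, 650 kept their call, 83 lost it and 1 changed sign: THY1 at day 7 with no batch term (0.13). The causes were not tested. No paired analysis was possible because the doxycycline and untreated samples compared share no replicate numbers. With 1 day 7 library in b1, batch differences have wide errors, and ANKRD1 is limited by its few UMIs.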
